A study of Mus musculus with 25 samples.

Results

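The 8 genes described here, H2-Aa, H2-Ab1, H2-Eb1, H2-DMa, H2-DMb1, H2-Oa, Cd74 and Ciita, carry out or switch on MHC class II antigen presentation. They were taken from a list by gene symbol, a rule that uses no measured value, and all 8 were found among the 24984 genes of the count table. RNA was sequenced from 25 libraries in 7 groups. The 9 libraries of cultured cells were 3 cultures each of BMEL WT, RasLOW and RasHIGH cells. BMEL cells are a clonally derived line of bipotential progenitors from the embryonic liver of C57BL/6 x C3H mice, the BMEL WT cultures carried an empty vector, and the RasLOW and RasHIGH cells carried human H-Ras G12V from a retroviral vector with a Venus or mCherry reporter and were sorted for low or high fluorescence. The other 16 libraries came from 4 athymic nude mice (Foxn1nu), whose thymus-derived T cells are largely lacking, after BMEL cells with H-Ras G12V had been injected into the liver. From the liver tumour and from the peritoneal tumour of each mouse, cells positive for the green reporter were sorted as tumour cells and negative cells as stroma. The labels do not give the age of the mice.

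A class II molecule is a pair of an alpha and a beta chain that holds peptides from endocytosed proteins on the cell surface for CD4 T cells. H2-Aa and H2-Ab1 encode the chains of the A molecule, and H2-Eb1 the beta chain of the E molecule. Cd74, the invariant chain, escorts new class II molecules to endosomes and leaves a fragment in the peptide groove. H2-DMa and H2-DMb1 encode the DM molecule, which exchanges that fragment for peptide, and H2-Oa encodes a chain of the DO molecule, which restrains DM. Ciita is the class II transactivator, a co-activator that docks on factors bound at the X and Y boxes of these promoters and is itself largely restricted to dendritic cells, B cells and macrophages unless interferon gamma induces it elsewhere.

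In mm9, 6 of the 8 genes lay within 223.9 kb of chromosome 17, from H2-Oa (chr17:34229285-34232179) and H2-DMa (chr17:34272127-34276046) through H2-DMb1 (chr17:34290017-34297168), H2-Ab1 (chr17:34400154-34406363) and H2-Aa (chr17:34406276-34424772, minus strand) to H2-Eb1 (chr17:34442828-34453144). Ciita lay at chr16:10480237-10527657, and Cd74 outside this cluster as well. The annotated H2-Ab1 and H2-Aa genes share 88 bases on opposite strands, and the strand setting of the authors' counting is not given in the sources used here, so reads in that overlap cannot be told apart. H2-DMb1 also has a near-identical neighbour, H2-DMb2, between which reads may have been divided in an unknown way.

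The promoters of 3 genes are shown as examples of sequence with the Y box core, in H2-Eb1 also the X box core. H2-DMb1, which holds both cores, is not shown. Whether the boxes bear on the levels in stroma was not tested. The RefSeq table used (GRCm38.p6) held a promoter for 5 of the 8 genes, and the windows were placed on mm9 by an exact and single match. Capitals mark the Y box core TGATTGG and the X box core AACNGATG, searched on both strands in the 150 bases before each transcription start. The H2-Oa window is cut where the mm9 annotation begins the gene.
H2-Aa, chr17:34424769-34424918, minus strand: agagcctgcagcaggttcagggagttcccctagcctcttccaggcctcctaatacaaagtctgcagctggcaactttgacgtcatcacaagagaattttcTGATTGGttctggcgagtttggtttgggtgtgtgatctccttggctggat
H2-Eb1, chr17:34442662-34442811, plus strand: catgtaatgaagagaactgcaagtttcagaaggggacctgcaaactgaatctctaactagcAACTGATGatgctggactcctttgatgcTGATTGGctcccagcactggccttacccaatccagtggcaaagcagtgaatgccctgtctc
H2-Oa, chr17:34229174-34229285, plus strand: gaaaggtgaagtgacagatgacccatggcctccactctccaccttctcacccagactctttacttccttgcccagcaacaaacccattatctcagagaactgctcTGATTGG

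The Y core began 50 bases before the start of H2-Aa, 61 before that of H2-Eb1, 63 before that of H2-DMb1 and 45 before that of H2-Oa. The X core was found in H2-Eb1, with 20 bases between it and the Y core, and in H2-DMb1, with 21 bases between them. Neither of the 2 starts listed for H2-DMa had either core. Their windows, chr17:34259627-34259776 and chr17:34262313-34262462, lay far before the mm9 start of H2-DMa at chr17:34272127. The promoter at that annotated start was not searched, so no absence of the boxes in H2-DMa is shown. Among 32851 promoters of the same length, 5.71% held the Y core, 1.14% the X core and 0.0791% both. A match of letters is a description of the sequence and no measure of binding.

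Before the results, some libraries need to be described. Total counts ran from 20818989 to 51241336 per library, so that 3 counts corresponded to between 0.0585 and 0.144 CPM (counts scaled to the library total), a limit that covers counting error only. The epithelial genes Krt8, Krt18, Epcam and Cdh1 summed to between 5456 and 8761 CPM in the tumour cell libraries and to between 513 and 1114 CPM in the stroma, and 5 leukocyte genes (Ptprc, Laptm5, Coro1a, Cd53 and Cd48) to between 1928 and 3638 CPM in the stroma. The peritoneal tumour cell library of mouse 1 stood apart from the other 3 in its group by its macrophage genes, with a sum over 8 genes of 182.8 CPM against 23.3 to 32.9 CPM, and the tests that rest on it are given with and without it. The stromal libraries of mouse 2 did not resemble each other in 2 genes that otherwise differed between mice, which is described below under H2-Eb1.

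In the stroma, each of the 8 genes was higher in liver than in peritoneal tumours, by a fitted factor of between 1.46 and 1.79. The change was of like size for the chains of the surface molecules, for the chaperones that load them and for Ciita. Of 14755 genes tested, 14.9% were called higher in liver stroma and 18.5% lower at an adjusted p under 0.05 in edgeR's quasi-likelihood test, and 8 of the 8 class II genes were called higher. Their median log2 fold change was 0.72 (range 0.55 to 0.84), against 0.018 over all genes tested. None of the 8 reached the 2-fold change that the study asked of sorted cells. Fold changes come from the fit, in which libraries are scaled by TMM, and are smaller than the ratios of plain CPM.

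**Figure D1:**
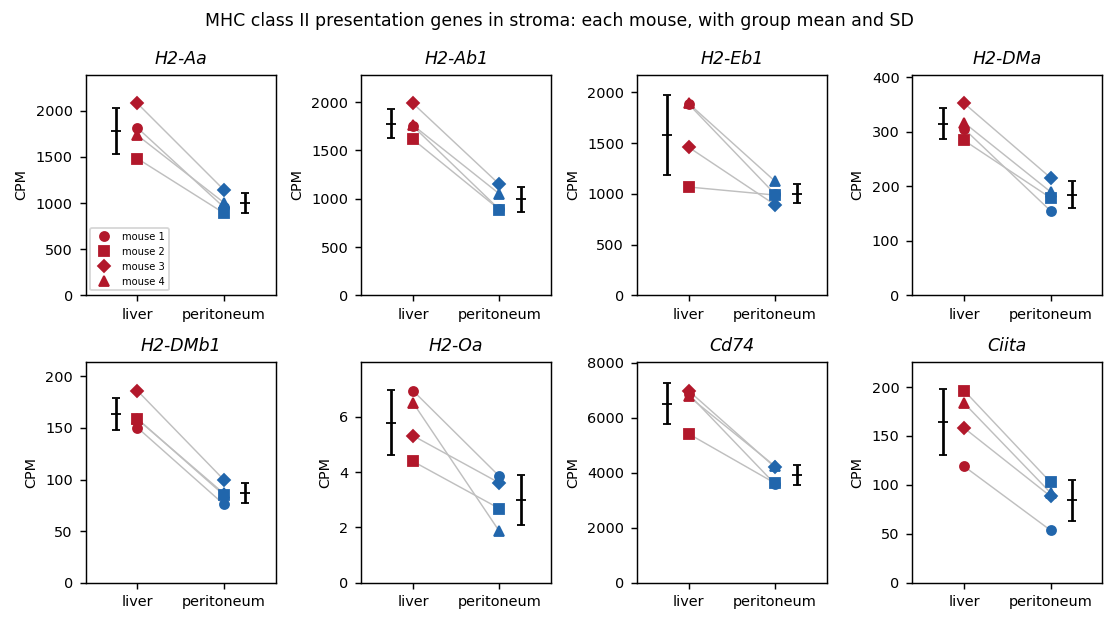
CPM of the 8 class II genes in liver and peritoneal stroma on linear axes, with 1 symbol per mouse, grey lines joining the libraries labelled as the same mouse, and black bars for the group mean and SD (n = 4). Every line falls from liver to peritoneum, and only for H2-Eb1 do the groups overlap, at 1067 CPM in the liver and 1124 CPM in the peritoneum.

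H2-Aa, the alpha chain of the A molecule, stood at 1814, 1481, 2078 and 1733 CPM in the liver stroma of mice 1 to 4 and at 955, 892, 1144 and 1005 CPM in their peritoneal stroma. Every liver library lay above every peritoneal one, with a log2 fold change of 0.72 (SE 0.14, adjusted p = 0.00329). H2-Ab1, its beta chain partner, stood at 1751, 1615, 1987 and 1762 CPM in liver and at 889.9, 888, 1149 and 1051 CPM in peritoneal stroma. The groups again did not overlap, and the log2 fold change was 0.72 (SE 0.13, adjusted p = 0.00201). Within libraries the ratio of H2-Aa to H2-Ab1, as a ratio of CPM not corrected for gene length, was 0.996 ± 0.059 (SD, n = 4) in liver and 1.01 ± 0.049 in peritoneal stroma, so the chains kept their proportion at both sites. H2-Eb1, the beta chain of the E molecule, was measured at 1884, 1067, 1459 and 1891 CPM in liver and at 998, 988, 892 and 1124 CPM in peritoneal stroma. Its lowest liver library, that of mouse 2, lay among the peritoneal ones, and the log2 fold change of 0.55 (SE 0.19, adjusted p = 0.0473) was the smallest of the 8.

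Cd74, the invariant chain, stood at 6863, 5416, 6984 and 6782 CPM in liver and at 3588, 3621, 4199 and 4239.7 CPM in peritoneal stroma. The groups did not overlap, and the log2 fold change was 0.62 (SE 0.13, adjusted p = 0.00536). The DM chain H2-DMa was at 305, 284, 352 and 317 CPM in liver and at 155, 179, 216 and 190.0 CPM in peritoneal stroma, without overlap and with a log2 fold change of 0.65 (SE 0.13, adjusted p = 0.00352). H2-DMb1, the other DM chain, was at 150.4, 159, 186 and 158 CPM in liver and at 76.1, 85.1, 99.9 and 86.5 CPM in peritoneal stroma. The 2 groups were far apart for their spread, and its adjusted p of 0.000558 was the lowest of the 8, at a log2 fold change of 0.79 (SE 0.11). The DO chain H2-Oa was sparse, at 6.94, 4.39, 5.31 and 6.51 CPM in liver and 3.85, 2.68, 3.61 and 1.86 CPM in peritoneal stroma. All liver values exceeded all peritoneal ones, with a log2 fold change of 0.83 (SE 0.26, adjusted p = 0.0322). Ciita was at 119, 196, 158 and 184 CPM in liver and at 53.6, 103, 88.3 and 91.9 CPM in peritoneal stroma. Mouse 1 was the lowest for Ciita at both sites, the groups did not overlap, and the log2 fold change was 0.84 (SE 0.21, adjusted p = 0.0117).

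Taken by the mouse numbers of the labels, which are in doubt for the libraries of mouse 2 as described under H2-Eb1, the liver library was higher in 4 of 4 mice for each gene, with CPM ratios from 1.66 to 1.90 for H2-Aa, from 1.08 to 1.89 for H2-Eb1, from 1.83 to 1.98 for H2-DMb1 and from 1.79 to 2.22 for Ciita. How many of all genes lay without overlap between the stromal groups, or were higher in liver in 4 of 4 mice, was not counted. With the mouse as a replicate block, all 8 genes were again called. By the lane field of the sample descriptions, the libraries of mice 1, 3 and 4 were each compared within 1 lane, whereas those of mouse 2 came from different lanes. The calls of H2-Eb1 and H2-Oa were not stable when 1 library was left out. H2-Eb1 was not called in 7 of the 8 fits that left out 1 library, at adjusted p from 0.061 to 0.128, and was called only without the liver library of mouse 2 (log2 fold change 0.71, adjusted p = 0.00342). H2-Oa was not called in 5 of those 8 fits, with adjusted p up to 0.0865, and the other 6 genes were called in each of them.

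Other genes of presentation were read from lists set by function. Of 4 further class II genes in the table, 2 were called higher in liver stroma and 0 lower, with a median log2 fold change of 0.79. They were H2-Ob, the other DO chain, with a log2 fold change of 1.05 (SE 0.32, adjusted p = 0.0302) from a mean of 6.31 CPM in the peritoneum, and H2-DMb2, with 0.66 (SE 0.16, adjusted p = 0.0108). Of 16 genes of antigen processing and class II traffic, 3 were called higher, 3 lower and 10 in neither direction, with a median of 0.046. March1, a ubiquitin ligase that removes class II from the surface, was higher with a log2 fold change of 0.53 (adjusted p = 0.0438), as was Cd83, a surface protein of mature dendritic cells, with 0.50 (adjusted p = 0.05 when rounded, just inside the threshold). The tetraspanin Cd63 was lower with -1.26 (adjusted p = 3.74e-05), as was the related ligase March8 with -0.51 (adjusted p = 0.00332).

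Of 20 genes of the class II transcription machinery and the interferon gamma pathway, 19 were tested, 8 were called higher in liver stroma and 0 lower, with a median log2 fold change of 0.25. The called genes with the largest changes were Irf4 at 0.76 (adjusted p = 0.039) and Irf8 at 0.69 (adjusted p = 0.000996), both factors of dendritic and other blood cells, the kinase Jak2 at 0.57 (adjusted p = 0.00145), and Spi1, the myeloid factor PU.1, at 0.55 (adjusted p = 0.00162). The subunits of the RFX complex that binds the X box were not called, with log2 fold changes of -0.15 for Rfx5, 0.18 for Rfxap and -0.14 for Rfxank. Ifng itself was too sparse to be tested, at no more than 1.30 CPM in any stromal library. Of 9 genes of costimulation and of class II receptors, 4 were called higher and 1 lower. Cd274, the ligand PD-L1, rose by a log2 fold change of 1.09 (adjusted p = 0.00163), Pdcd1lg2 by 0.90 (adjusted p = 0.00584) and Icosl by 0.89 (adjusted p = 0.00104) in liver, and Cd3e of the T cell receptor complex was lower by -2.81 (adjusted p = 0.000219), from 10.6 CPM in the peritoneum to 1.63 CPM in the liver. Of 3 T cell genes tested, Cd3e was the 1 called, the other 2 were not, and their median log2 fold change was -0.33.

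Markers of the cells that carry class II moved with the site as well. All 5 leukocyte genes were called higher in liver stroma with a median log2 fold change of 0.62, and their sum ranged from 3184 to 3638 CPM in liver and from 1928 to 2298 CPM in peritoneal stroma. Of 7 dendritic cell genes, 6 were called higher with a median of 0.92, among them Clec9a at 1.29, Flt3 at 1.13 and Xcr1 at 0.92, while Zbtb46 was not, at -0.0032. All 7 B cell genes were called higher, with a median of 2.05, from low levels that summed to between 28.1 and 49.7 CPM in liver and between 2.78 and 11.4 CPM in peritoneal stroma. Of 8 macrophage genes, only Csf1r was called higher, at 0.41, and the list's median was 0.062. Of 5 genes of Kupffer cells, the resident macrophages of the liver, 4 were called higher, with sums of 198 to 567 CPM in liver and 4.92 to 31.9 CPM in peritoneal stroma, and Clec4f among them had no counts in any peritoneal stromal library. All 3 NK cell genes, 1 of 2 plasmacytoid dendritic cell genes and 2 of 4 endothelial genes were also called higher in liver. All 5 fibroblast genes were lower in liver, with a median of -3.18 and sums of 3773 to 7713 CPM against 47737 to 70899 CPM. In bulk stroma, fewer cells of a type and less RNA per cell cannot be told apart.

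The site difference of the class II genes was also measured against leukocyte, dendritic cell and macrophage markers, by scaling the libraries to the mean log2 level of their markers. Scaled to the 5 leukocyte genes, 0 of the 8 were called, and the log2 fold changes lay between -0.08 and 0.23, 6 above and 2 below 0, with a median of 0.098 when the median of all genes moved to -0.59. Scaled to the 7 dendritic cell genes, 0 were called and the values lay between -0.32 and 0.03, with 7 of 8 below 0 and a median over all genes of -0.84. Scaled to the 8 macrophage genes, all 8 stayed above 0, between 0.43 and 0.72, and H2-Aa, H2-Ab1 and H2-DMb1 were called (adjusted p = 0.0368, 0.0331 and 0.045). The numbers of all genes called higher and lower in liver were 2203 and 2723 with TMM, 296 and 9834 with the leukocyte scaling, 176 and 11425 with the dendritic cell scaling and 642 and 1949 with the macrophage scaling. Whether the cell make-up of the stroma accounts for the class II difference was not tested.

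**Figure D2:**
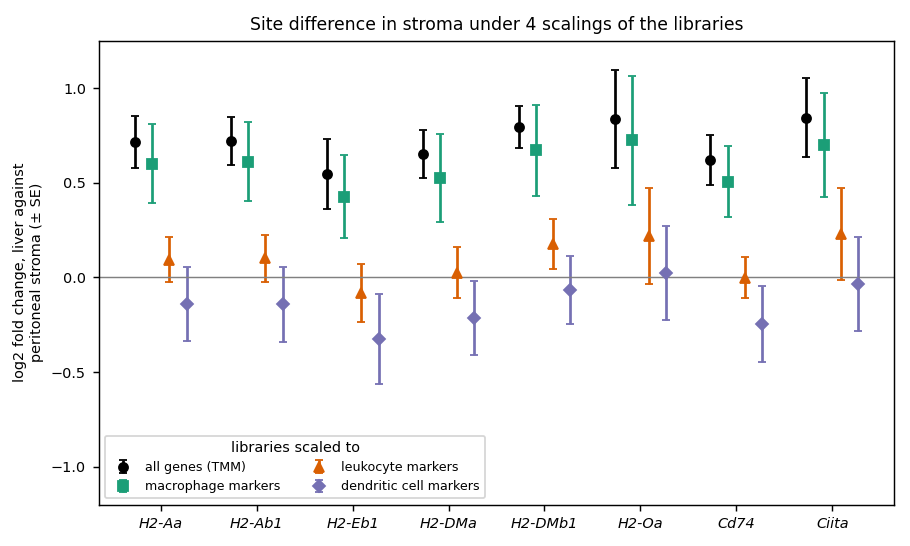
Fitted log2 fold change of each class II gene between liver and peritoneal stroma (points, with SE as bars) with the libraries scaled to all genes by TMM or to macrophage, leukocyte or dendritic cell markers. All points lie above 0 with the first 2 scalings, between 0.43 and 0.84, and between -0.32 and 0.23 with the other 2.

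The E genes set the stromal libraries apart in a further way. In C57BL/6 mice, the source of the reference genome, the gene for the E alpha chain is defective, and the table names it H2-Ea-ps. The stroma came from athymic nude mice, whose H2 type is not given in the sources used here. H2-Ea-ps was measured at 629 to 1293 CPM in liver and 329 to 756 CPM in peritoneal stroma. Its CPM ratio to H2-Eb1 was 0.378, 0.985, 0.886 and 0.333 in the liver stroma of mice 1 to 4 and 0.346, 0.333, 0.847 and 0.325 in their peritoneal stroma. In stroma, mice 1, 3 and 4 thus had like ratios at both sites, and the libraries labelled mouse 2 did not. The ratio of H2-Eb1 to H2-Ab1 was lowest in the 3 libraries in which that ratio was highest, at 1.08, 0.661, 0.735 and 1.07 in liver and 1.12, 1.11, 0.776 and 1.07 in peritoneal stroma. Cwc22, a splicing factor, also differed between the libraries of mouse 2, at 27.3 CPM in liver and 267.7 CPM in the peritoneum, against 461 and 455 CPM in mouse 3 and 21.4 to 26.2 CPM in mice 1 and 4. Gm6654, Gm17597, Slc15a2 and Tmem181c-ps, which also split the mice, were alike in both libraries of every mouse, mouse 2 included. The ratio of H2-Ea-ps to H2-Eb1 in tumour cells, at far lower counts, gave another picture. It was 0.504, 0.775, 1.08 and 0.317 in the liver tumour cells of mice 1 to 4. In their peritoneal tumour cells it was 0.354, 0.716, 1.31 and 1.27. There the sites were alike for mouse 2 and lay furthest apart for mouse 4. Without the stromal libraries of mouse 2, and with the mouse as a replicate block, 7 of the 8 genes were called, with H2-Eb1 at a log2 fold change of 0.69 (adjusted p = 0.00633) and H2-Oa not called at 0.95 (adjusted p = 0.066). Whether reads from other H2 alleles were lost on the C57BL/6 reference was not tested.

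**Figure D3:**
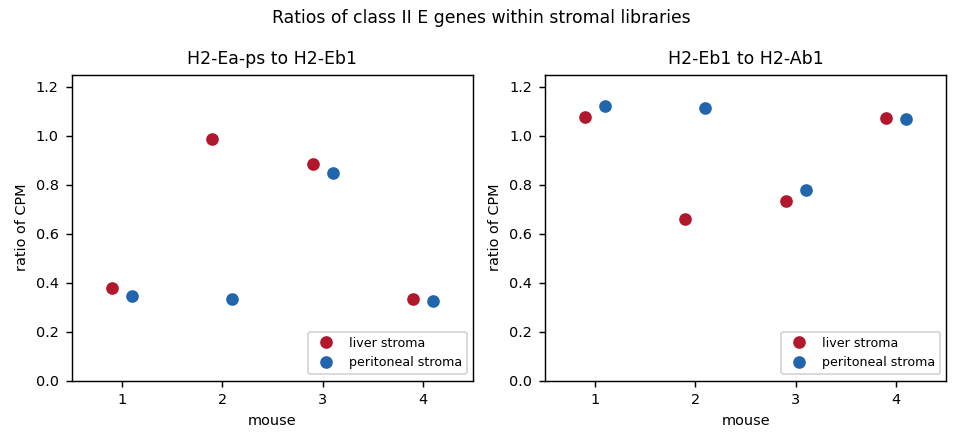
Ratio of CPM of H2-Ea-ps to H2-Eb1 (left) and of H2-Eb1 to H2-Ab1 (right) in each stromal library, by mouse, with liver in red and peritoneum in blue. The sites of mice 1, 3 and 4 lie close together in both panels, and those of mouse 2 lie apart, at 0.985 and 0.333 on the left and 0.661 and 1.11 on the right.

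Across the 8 stromal libraries, with the mean of each site removed, the genes whose log2(CPM + 1) followed most closely the mean of H2-Aa, H2-Ab1, H2-Eb1 and Cd74 were Got1 (Pearson r = 0.979), Rnh1 (0.976), Ubac2 (0.970), Nod2 (0.966) and Trappc6a (0.966). These are the top of 10908 genes searched over 8 libraries. All genes of a library share its depth and its cell make-up, which differ between libraries, and the 5 genes are given as a description.

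In the sorted tumour cells, the class II genes were lower than in the stroma of the same site by a fitted factor of at least 88.2 in the 7 genes with enough counts, with a low residual level. In the liver, 39.4% of 14620 genes tested were called lower in tumour cells, and in the peritoneum 37.1% of 14584. At both sites the 7 class II genes other than H2-Oa were all called lower. Leaving aside H2-Oa, the fitted log2 fold changes lay between -8.80 (H2-Eb1, SE 0.33, adjusted p = 2.95e-10) and -7.16 (H2-DMa, SE 0.14, adjusted p = 3.3e-12) in the liver and between -7.82 (Ciita, SE 0.59, adjusted p = 6.55e-06) and -6.46 (H2-DMa, SE 0.68, adjusted p = 3.93e-05) in the peritoneum. Without the peritoneal library of mouse 1, the peritoneal values of these 7 genes ran from -9.54 (H2-Eb1) to -7.63 (H2-DMa), and all 7 were called. In that fit, 74.6% of 14841 genes were called in either direction. H2-Oa had 2, 1, 1 and 1 counts in liver tumour cells and 1, 0, 0 and 0 in peritoneal tumour cells, which is under the level of 3 counts in each library, and no fold is given for it. It entered these fits only through its stromal counts, so its call, lower at both sites, is not counted. Tumour cells and stroma were separated by their fluorescence, so this contrast describes the sort as well as the cells.

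**Figure D4:**
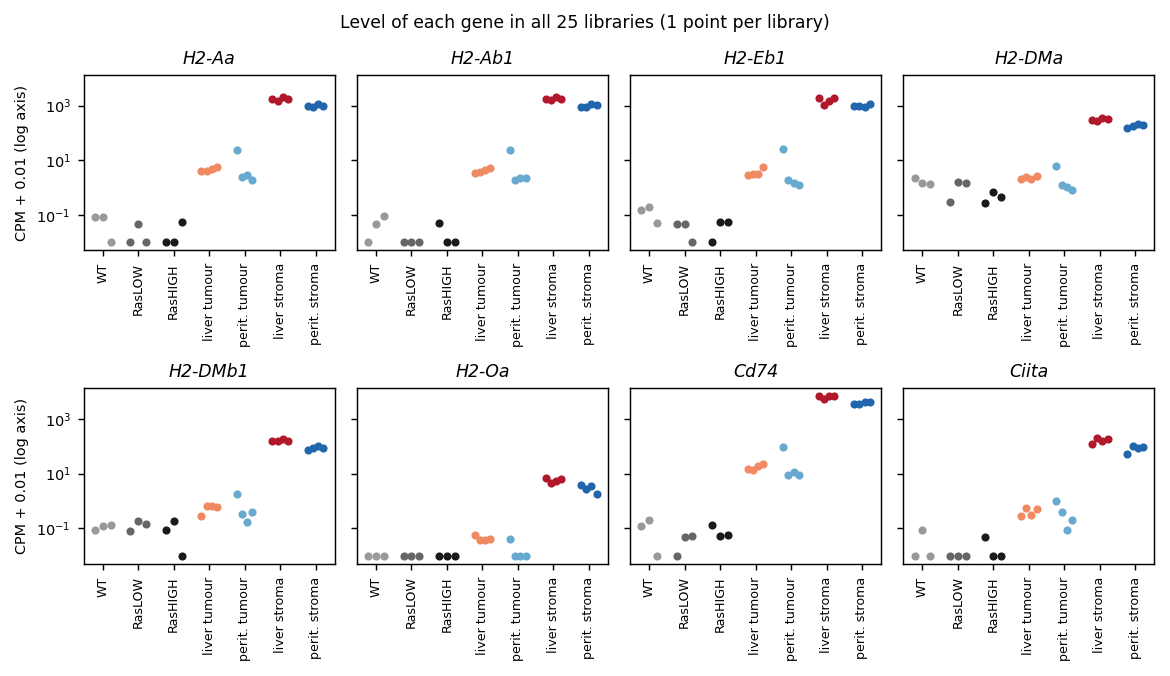
CPM plus 0.01 of each class II gene on a log axis, with 1 point per library in the 7 groups. The stromal groups are the highest for every gene, the tumour cells follow, with the peritoneal library of mouse 1 above the others in its group, and the cultured cells lie near the bottom of the axis except for H2-DMa.

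H2-Aa stood at 4.21, 4.11, 4.77 and 5.63 CPM in the liver tumour cells of mice 1 to 4 and at 23.3, 2.49, 2.95 and 1.85 CPM in their peritoneal tumour cells. Cd74 stood at 14.7, 13.1, 18.7 and 22.6 CPM in liver and at 91.5, 8.85, 11.2 and 9.10 CPM in peritoneal tumour cells. For both, 3 peritoneal libraries lay below all liver libraries and that of mouse 1 lay above them all. H2-Ab1 showed the same order, at 3.52 to 5.15 CPM in liver tumour cells and at 23.5 CPM in mouse 1 against 1.98 to 2.30 CPM in the other peritoneal libraries, as did H2-Eb1, at 2.83 to 5.89 CPM, 26.3 CPM and 1.25 to 1.89 CPM. H2-DMa was at 2.0, 2.45, 2.13 and 2.74 CPM in liver and at 5.96, 1.30, 1.07 and 0.793 CPM in peritoneal tumour cells. H2-DMb1 ranged from 0.276 to 0.676 CPM and Ciita from 0.276 to 0.535 CPM in liver tumour cells, and in the peritoneum they were at 1.78 and 1.02 CPM in mouse 1 and no higher than 0.377 and 0.396 CPM in the others.

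Between liver and peritoneal tumour cells, 3.20% of 13074 genes tested were called in either direction. Of the 7 class II genes tested, 0 were called, also at an unadjusted p under 0.05. DESeq2 also called 0, but it gave an adjusted p for H2-DMb1 only and so could have called no other of them. In the edgeR fit, the log2 fold changes were between -1.01 (H2-Eb1, SE 0.90) and 0.07 (H2-DMa, SE 0.58), with adjusted p from 0.575 to 0.994. Without the peritoneal library of mouse 1, 6.70% of 13186 genes were called, and 5 of the 7 class II genes were called higher in liver tumour cells. These were H2-Eb1 at a log2 fold change of 1.35 (SE 0.30, adjusted p = 0.0253), H2-DMa at 1.19 (SE 0.27, adjusted p = 0.0254), H2-Ab1 at 1.03 (SE 0.22, adjusted p = 0.0204), H2-Aa at 0.99 (SE 0.22, adjusted p = 0.0256) and Cd74 at 0.88 (SE 0.19, adjusted p = 0.0241). H2-DMb1 at 1.03 and Ciita at 0.95 were not called. With all libraries kept and the mouse as a replicate block, all 7 values lay above 0, between 0.14 (Cd74) and 0.60 (H2-DMa), and 0 were called. The direction in tumour cells thus turns with 1 library and with the pairing.

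The level in tumour cells was then set against the stroma of the same mouse and site. In the liver it was 0.230% to 0.325% of the stromal level for H2-Aa, 0.201% to 0.292% for H2-Ab1 and 0.214% to 0.333% for Cd74, and the leukocyte gene Ptprc was at 0.197% to 0.281%. In the peritoneum, without mouse 1, it was 0.184% to 0.279% for H2-Aa, 0.215% to 0.268% for Cd74 and 0.203% to 0.263% for Ptprc. In the peritoneal library of mouse 1, H2-Aa was at 2.44%, Cd74 at 2.55%, Ptprc at 2.27%, Itgax at 2.79% and Csf1r at 4.00% of the stroma. H2-DMa was at a higher proportion than H2-Aa in each library, at 0.605% to 0.864% in the liver. The myeloid gene C1qa was more spread, at 0.175% to 0.874% in the liver. Cd53 departed from the other leukocyte genes, at 9.42% to 22.3% of the stroma over both sites, with 20.98 to 76.9 CPM in tumour cells and 6.53 to 14.5 CPM in cultured RasHIGH cells. Whether stromal RNA or cells in the sort account for the class II signal was not tested.

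**Figure D5:**
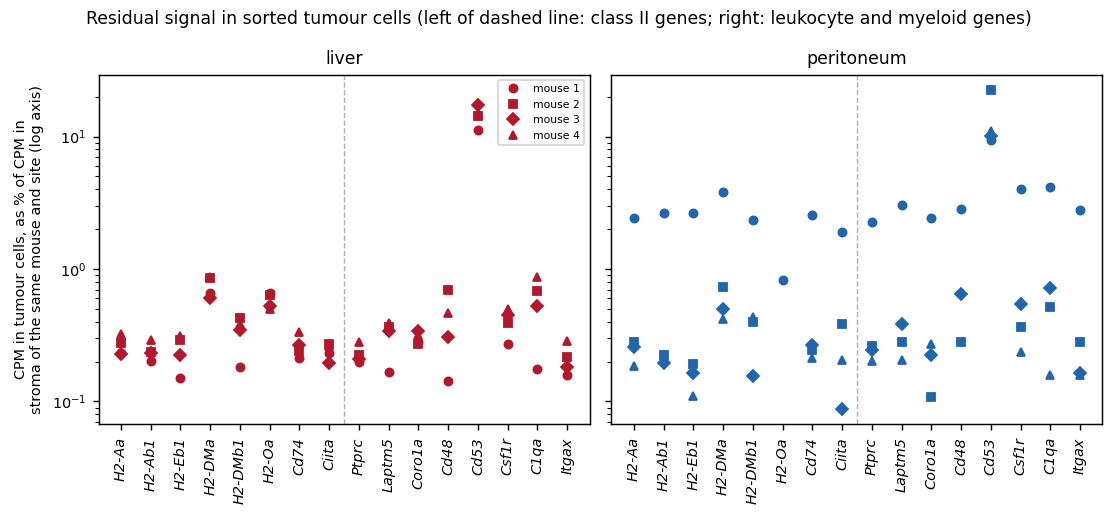
CPM in tumour cells as a percentage of CPM in the stroma of the same mouse and site, on a log axis, for the 8 class II genes, the 5 leukocyte genes and the myeloid genes Csf1r, C1qa and Itgax, with 1 symbol per mouse. In the peritoneum, mouse 1 lies between 0.828% and 4.14%, above the other mice, for every gene but Cd53, where it is lowest at 9.42%, and values of 0 (H2-Oa in mice 2 to 4 and Cd48 in mouse 4, all peritoneal) are not drawn.

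The site difference in stroma was compared with that in tumour cells as an interaction. Of 15331 genes tested, 14.3% were called, and 0 of the 8 class II genes, also at an unadjusted p under 0.05, with adjusted p from 0.243 to 0.525. The fitted difference, stroma minus tumour cells, lay between 0.64 (H2-DMa) and 1.61 (H2-Eb1) for the 7 genes other than H2-Oa. No value is given for H2-Oa, as it had too few counts in tumour cells. Without the peritoneal tumour library of mouse 1, 13.5% of genes and again 0 of the 8 were called, with 2 at an unadjusted p under 0.05. The same 7 values turned to between -0.79 (H2-Eb1) and -0.14 (Ciita). The ratio of Cd74 to H2-Ab1, as a ratio of CPM, was 3.66 ± 0.27 (SD, n = 4) in liver stroma, 3.95 ± 0.20 in peritoneal stroma and 4.01 ± 0.42 in liver tumour cells, whose ranges overlapped. In peritoneal tumour cells it was 3.90 in mouse 1 and 3.95 to 5.01 in the others.

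In the cultured cells, 7 of the 8 genes had between 0 and 5 counts in each library, at most 0.186 CPM, and H2-Oa had none in any of the 9. Their levels were near the limit of 3 counts, 0.106 to 0.144 CPM, and they were too sparse to be tested. H2-DMa was the exception, with 60, 41 and 33 counts (2.22, 1.53 and 1.37 CPM) in BMEL WT, 8, 42 and 34 counts (0.284, 1.54 and 1.46 CPM) in RasLOW and 7, 16 and 9 counts (0.277, 0.715 and 0.432 CPM) in RasHIGH cells. The RasHIGH cultures lay below all BMEL WT cultures, and RasLOW replicate 1 lay among the RasHIGH values. By the lane field, BMEL WT replicates 1 and 2 were in lane 3 and all other cultures in lane 4. Lane and group are thus partly confounded in the comparisons with BMEL WT. H2-DMa was the 1 class II gene tested in the comparisons of cultures. Against BMEL WT it fell in RasHIGH cells by 1.83 on the log2 scale (SE 0.46, adjusted p = 0.0282), where 22.6% of 12331 genes were called in either direction. It was not called with the replicate block (adjusted p = 0.0661) nor in 4 of the 6 fits that left out 1 culture. In RasLOW against BMEL WT it was not called, at -0.66 (adjusted p = 0.602), where 5.96% of genes were, nor in RasHIGH against RasLOW, at -1.16 (adjusted p = 0.679), where 0.0752% of genes were.

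Over all 7 groups, the order of the levels was the same for H2-Aa, H2-Ab1, Cd74 and Ciita, with liver stroma above peritoneal stroma, both above the tumour cells of either site, which overlapped each other, and these above the cultured cells. H2-Eb1 had this order with overlap between the stromal groups. For Ciita the last step was near the limit of counting. Its lowest peritoneal tumour cell library held 0.0781 CPM (4 counts) and its highest BMEL WT culture 0.0745 CPM (2 counts). Without the peritoneal library of mouse 1, liver tumour cells lay above peritoneal ones without overlap for H2-Aa, H2-Ab1, H2-Eb1, H2-DMa and Cd74. The share of all genes that separate in this way was not counted, so this is a description only. Among the cultures, Cd74 had 3, 1 and 1 counts in RasHIGH and 0, 1 and 1 in RasLOW cells. H2-Eb1 had 1, 1 and 0 counts in RasLOW and 4, 5 and 1 in BMEL WT cells. In both cases the groups met at 1 count, and no order is read from them. H2-DMa was lower in RasHIGH than in BMEL WT as given above. For H2-DMb1 and H2-Oa the tumour cells overlapped the cultured cells as well, and for H2-DMa 3 of the 4 peritoneal and 2 of the 4 liver tumour cell libraries lay within the range of the cultures. Tumour cells and cultures were not compared by a test.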

How the data were processed

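The authors prepared libraries with the NuGEN Universal Plus mRNAseq kit, sequenced them on an Illumina HiSeq instrument, aligned reads to mm9 with TopHat2 and deposited whole-number counts of reads per gene, not normalized, for all 25 libraries in 1 table. The counting program, strand setting and annotation are not given in the sources used here. The submitters' processing notes also name FastQC, Bowtie 0.12.2 and the builds mm8 and mm10, with no role. CPM values are counts scaled to the library total.

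Each comparison used the libraries of its 2 groups. In R 4.3.3, edgeR 4.0.16 removed genes with low counts (filterByExpr, minimum count 10), normalized by TMM and compared groups by its quasi-likelihood test, and p-values were adjusted by Benjamini-Hochberg across every gene in the fit. A gene was called at an adjusted p under 0.05. The interaction used all 16 sorted libraries. The steps were tested on simulated data. The 8 genes, the functional and marker lists and the tests were chosen with earlier results of these data known. All 8 genes are named in every comparison, and from each functional list the called genes (up to 4) with the largest changes in stroma; Rfx5, Rfxap, Rfxank and Ifng were added after their values were seen. Gene positions are from GENCODE vM1 on mm9.

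The mouse numbers in the sample titles label libraries as coming from the same animal, which the ratio of H2-Ea-ps to H2-Eb1 and the level of Cwc22 put in doubt for the stromal libraries of mouse 2. In tumour cells, that ratio was alike for mouse 2 and differed between the sites of mouse 4. In stroma, the correlation across genes of the deviations of same-numbered libraries from their group means was -0.0067, 0.191, 0.19 and 0.355 for mice 1 to 4. For the cultures, the number is not said to mark a shared day, and p-values measure the spread between these samples. Alternatives were DESeq2 1.42.0, RLE normalization, no filter, the study's thresholds, a replicate block, all libraries in one fit, leaving out each library and scaling to leukocyte markers. Scaling to macrophage and dendritic cell genes and the block without mouse 2 were added after seeing the data.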

Additional observations from a re-analysis of the deposited data

Results flagged for a closer look

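In 30 groups of 4 libraries (1 gene in 1 group), a library standing apart from the other 3 by Dixon's ratio was looked for. It was found in 9 of them. Chance gives about 1 in 20 for independent groups, but these groups share libraries, so 9 of 30 cannot be set against that rate. Of these 9, 6 are the peritoneal tumour cell library of mouse 1. It held 23.3 CPM of H2-Aa against 1.85 to 2.95 CPM in the others, 23.5 CPM of H2-Ab1 against 1.98 to 2.30 CPM, 26.3 CPM of H2-Eb1 against 1.25 to 1.89 CPM, 5.96 CPM of H2-DMa against 0.793 to 1.30 CPM, 1.78 CPM of H2-DMb1 against 0.156 to 0.377 CPM and 91.5 CPM of Cd74 against 8.85 to 11.2 CPM. The same library was the highest of its group for Ptprc, at 12.5 CPM against at most 1.24 CPM, and for the sum of 3 neutrophil genes, at 45.1 CPM against at most 2.04 CPM. The peritoneal stroma of the same mouse also had the highest neutrophil sum of its group, at 2311 CPM against at most 184.4 CPM.

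The other 3 were single values. H2-Eb1 was at 5.89 CPM in the liver tumour cells of mouse 4 against 2.83 to 3.25 CPM in the others. H2-DMb1 was at 0.276 CPM in the liver tumour cells of mouse 1 against 0.612 to 0.676 CPM. Cd74 was at 5416 CPM in the liver stroma of mouse 2 against 6782 to 6984 CPM.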

How the results depend on the processing

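Over 625 refits of single class II genes, 549 kept direction and call, 39 lost the call, 1 gained it and 36 changed direction. The cause was not tested. In stroma, 8 genes were called with TMM, RLE, DESeq2 and the replicate block, 7 without the filter on low counts and 6 to 8 when 1 library was left out. With the thresholds of the study 0 were called, as every fold is under 2, and 1 with all libraries in one fit, 0 scaled to leukocyte genes, 3 to macrophage genes and 0 to dendritic cell genes. The values that turned were H2-Eb1 at -0.081 and Cd74 at -0.0018 with the leukocyte scaling, and H2-Aa at -0.14, H2-Ab1 at -0.14, H2-Eb1 at -0.32, H2-DMa at -0.21, H2-DMb1 at -0.066, Cd74 at -0.25 and Ciita at -0.035 with the dendritic cell scaling. Between tumour cells, 0 to 5 genes were called when 1 library was left out, 5 without peritoneal mouse 1. The log2 fold changes then ranged from -0.998 to 0.99 for H2-Aa, -1.10 to 1.03 for H2-Ab1, -1.36 to 1.35 for H2-Eb1, -0.22 to 1.19 for H2-DMa, -0.56 to 1.03 for H2-DMb1, -1.08 to 0.88 for Cd74 and -0.39 to 0.95 for Ciita. With the replicate block, which pairs libraries of a mouse, they were 0.26 for H2-Aa, 0.27 for H2-Ab1, 0.43 for H2-Eb1, 0.35 for H2-DMb1, 0.14 for Cd74 and 0.39 for Ciita, none called, and Ciita was at 0.037 with all libraries in one fit. The interaction, when 1 library was left out, ranged from -0.27 to 1.77 for H2-Aa, -0.32 to 1.88 for H2-Ab1, -0.79 to 1.97 for H2-Eb1, -0.53 to 0.90 for H2-DMa, -0.27 to 1.45 for H2-DMb1, -0.27 to 1.76 for Cd74 and -0.14 to 1.34 for Ciita. For H2-DMa in RasHIGH against BMEL WT, the call was lost with the replicate block and with all libraries in one fit (0 called each), and 0 to 1 were called when 1 culture was left out. The replicate block changed no other call. In peritoneal tumour cells against stroma, DESeq2 called 4 genes, H2-Oa among them, and gave no adjusted p for the other 4. Between liver and peritoneal tumour cells it gave an adjusted p for H2-DMb1 only, which was not called.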
